A study of Mus musculus with 8 samples.

Results

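The genes described here are 35 genes of motile cilia, the beating hairs of multiciliated airway cells. They were fixed as a list of symbols, from the regulator Foxj1 to axoneme genes such as Dnah5 and ciliated cell markers such as Tppp3, and every one of the 35 symbols was matched to 1 of the 52636 Ensembl gene identifiers counted in the deposited files. They were read in lung RNA from 8 libraries that fall into 4 groups of 2. The COPD mice model was made with porcine pancreatic elastase (PPE) into the trachea at 10 weeks of age and lipopolysaccharide (LPS), a component of bacterial membranes, from 12 weeks, where control mice received PBS at the same ages. In both, 1 group ate the control diet and the other a diet with 2% TJ-41, the Kampo herbal medicine hochuekkito, from 8 weeks. The mice of all groups were male, wild-type C57BL/6 animals. The day on which lungs were taken for RNA and the number of mice behind each library were not given in the sources used here, so the p-values below measure the spread between these libraries, which may be in part technical.

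A motile cilium is built on the axoneme, a ring of microtubule doublets around a central pair. Outer and inner dynein arms, rows of motor proteins on each doublet, make the doublets slide, while radial spokes, the central apparatus and the nexin-dynein regulatory complex turn that sliding into a beat that clears mucus from the airways. The forkhead factor Foxj1 switches on the genes of this machine together with RFX factors, which bind a sequence called the X-box, and loss of many of these parts causes primary ciliary dyskinesia.

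The binding letters of these factors were looked for in the RefSeq promoter sequences of the GRCm38.p6 build, from 250 bases before to 50 bases after a gene's start, on both strands. Of the 35 genes, 29 had such a promoter. The whole X-box, GTTNCC and GGNAAC with 2 bases of any kind between them, was in 0 of these 29 and in 0.529% of the 27025 genes of the table. A shorter form, GTTNCCATG, called short X-box here and also held by a whole X-box with AT in its middle, was in 3 of the 29 (10.3%), against 2.22% of all genes, and the forkhead core TGTTTAC was in 1 of the 29 (3.45%), against 4.05% of all genes. The 4 matches are shown in windows of 60 bases written along the strand of the gene, with the match in capitals, because they are the places where the letters of the factor that heads the list, or of its RFX partners, occur beside these genes.
Dnah5, chr15:28203673-28203732, plus strand, short X-box on the opposite strand from base -68: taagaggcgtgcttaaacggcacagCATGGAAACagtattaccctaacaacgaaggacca
Dnali1, chr4:125065657-125065716, minus strand, short X-box from base -8: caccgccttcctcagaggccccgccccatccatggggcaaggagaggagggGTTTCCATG
Cfap52, chr11:67965643-67965702, minus strand, short X-box from base -16: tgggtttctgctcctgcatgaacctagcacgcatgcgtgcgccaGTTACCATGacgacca
Cfap43, chr19:47837383-47837442, minus strand, forkhead core on the opposite strand from base -55: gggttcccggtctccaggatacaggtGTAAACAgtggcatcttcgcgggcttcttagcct
A match is a run of letters and not a measured site, and the other 25 promoters held none of these letters in this window.

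The libraries held 18767295 to 20888042 counts, and every one of the 35 genes had at least 106 counts in every library and was among the 20546 genes tested. Levels are given in CPM, counts per 1000000 after TMM scaling, where 3 counts equal 0.153 to 0.162 CPM. Replicates of the COPD mice model given the control diet stood apart from each other: the SD of their log2 difference over all genes was 0.675, against 0.313 to 0.377 in the other 3 groups. Over the 35 genes it was 0.678, against 0.125 to 0.353.

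Compared per length, Sec14l3 stood far above the other genes, and the dynein heavy chains Dnah2, Dnah11, Dnah9 and Dnah10 were among the lowest. The median over the 35 genes was 5.65 CPM per kilobase of exon. Sec14l3, a lipid-binding protein of ciliated cells, reached 476 CPM per kilobase, followed by the tubulin-binding protein Tppp3 with 87.6, the dynein light chain Dynlrb2 with 66.6, the membrane protein Tmem212 with 27.7 and Foxj1 with 19.7. At the other end, the inner arm heavy chain Dnah2 was at 1.64 and the outer arm heavy chain Dnah11 at 2.31 CPM per kilobase. The heavy chain Dnah6, at 8.35, was above the median. By role, the median was 3.45 for outer arm, 4.70 for inner arm and 3.10 for central apparatus genes, and 11.1 for the 2 radial spoke genes and 11.2 for the 6 cilia and flagella associated proteins.

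Sec14l3 alone carried 43.4% to 54.4% of the summed CPM of the 35 genes. The sum was 2140 and 2739 CPM in control mice given the control diet and 3074 and 3055 on the TJ-41 diet, and 3202 and 2532 CPM in the COPD mice model given the control diet and 2559 and 2818 on the TJ-41 diet, for replicates 1 and 2. Without Sec14l3 it was 977 and 1385, 1622 and 1590, 1725 and 1433, and 1313 and 1479 CPM in the same order. With or without Sec14l3, replicate 1 of control mice given the control diet was the lowest library and replicate 1 of the COPD mice model given the control diet the highest.

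**Figure D1:**
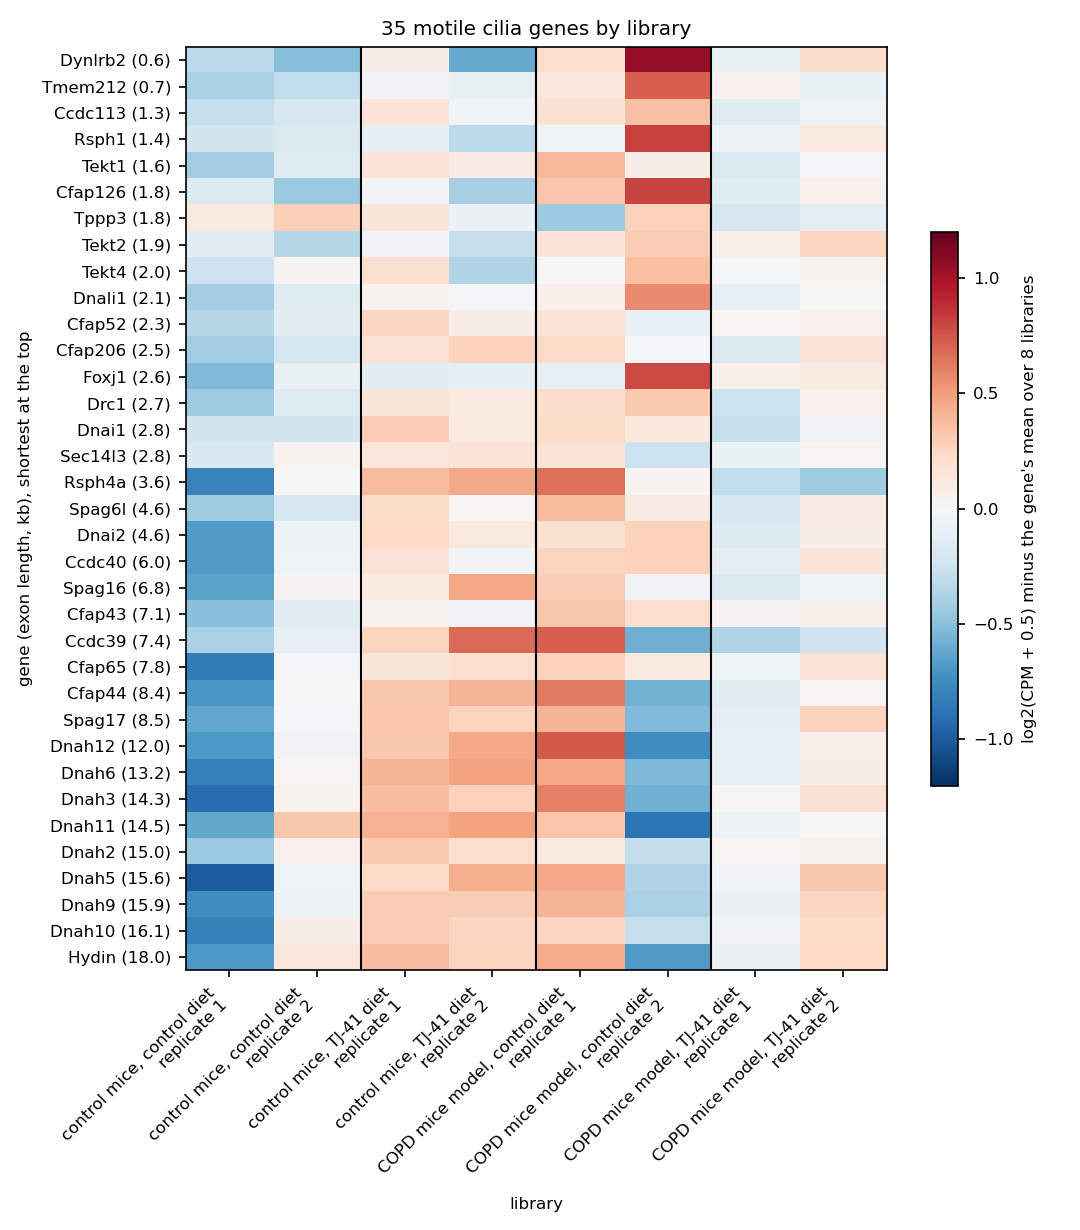
Each line of cells is 1 of the 35 genes, ordered by exon length (kb, in brackets) with the shortest at the top, each column is 1 library, and the color gives log2(CPM + 0.5) minus the gene's mean over the 8 libraries. Replicate 1 of control mice given the control diet is blue for all genes but 1, and replicate 2 of the COPD mice model given the control diet is red for 15 of 18 short genes and blue for 13 of 17 long ones, with a gene called long above 4559 bases.

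The same library was the lowest for most of the genes. Replicate 1 of control mice given the control diet was the lowest of the 8 for 24 of the 35 genes and was above the 8-library mean only for Tppp3. The highest library was replicate 1 of the COPD mice model given the control diet for 14 genes and replicate 2 of that group for 12.

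Foxj1, the master transcription factor of motile ciliogenesis (chr11:116330704-116335399, minus strand), was at 34.6 and 47.0 CPM in control mice given the control diet and at 45.5 and 46.2 on the TJ-41 diet. It was at 46.9 and 87.2 CPM in the COPD mice model given the control diet and at 52.4 and 54.0 on the TJ-41 diet. The library at 87.2 CPM lay far above the other 7, which ran from 34.6 to 54.0. Over the 8 libraries, the 4 genes most like Foxj1 by Pearson correlation of log2 CPM were Dnali1 (0.93), Rsph1 (0.92), Tmem212 (0.91) and Dynlrb2 (0.81), whereas its correlation with the 8 dynein heavy chains ran from -0.42 to 0.13. Values also varied with exon length in several of these libraries, and these correlations describe only the 8 libraries.

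The radial spoke head genes differed from each other. Rsph4a was at 13.4 and 23.8 CPM in control mice given the control diet, at 31.1 and 32.8 on the TJ-41 diet, at 38.0 and 24.3 in the COPD mice model given the control diet and at 19.3 and 17.6 on the TJ-41 diet. Both TJ-41 libraries of control mice were above both of their control diet libraries, and in the COPD mice model both were below. Rsph1 was at 16.2 to 22.1 CPM in 7 libraries and at 36.4 in replicate 2 of the COPD mice model given the control diet.

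The dynein heavy chains, which hold the motor domain, varied together over the libraries, and several other long genes varied with them. Dnah5, the outer arm heavy chain (chr15:28203752-28472052, plus strand, whose start lies beyond the window shown above), was at 36.6 and 70.9 CPM in control mice given the control diet, at 86.7 and 99.96 on the TJ-41 diet, at 101 and 57.3 in the COPD mice model given the control diet and at 71.9 and 92.2 on the TJ-41 diet. The inner arm heavy chain Dnah6, the most abundant inner arm gene by CPM, was at 59.9 and 107 CPM, 140 and 148, 146 and 72.7, and 99.0 and 111, in the same order of groups. For both genes, the 2 control diet libraries of each kind of mice differed more than the 2 TJ-41 libraries did. Over the 8 libraries the log2 CPM of the other 7 heavy chains correlated with that of Dnah5 at 0.80 (Dnah11) to 0.98 (Dnah9). Genes other than heavy chains lay in the same range, among them Spag17 (0.94), Cfap44 (0.92) and Hydin (0.91), whereas Rsph1 was at -0.18 and Tppp3 at -0.52.

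Among the remaining arm genes, the outer arm intermediate chain Dnai1 was at 10.7 and 10.6 CPM in control mice given the control diet, 15.6 and 13.6 on the TJ-41 diet, 14.7 and 13.7 in the COPD mice model given the control diet and 10.2 and 12.1 on the TJ-41 diet. Both control diet libraries of control mice and both TJ-41 libraries of the COPD mice model were below the other 4. The inner arm heavy chain Dnah2 was at 17.7 and 25.2, 30.2 and 27.7, 26.2 and 19.8, and 24.6 and 25.1 CPM in the same order.

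The molecular ruler gene Ccdc39, which sets the spacing of arms and spokes along the doublet, was at 25.4 and 31.3 CPM in control mice given the control diet, 40.2 and 54.0 on the TJ-41 diet, 55.2 and 22.1 in the COPD mice model given the control diet and 25.9 and 28.5 on the TJ-41 diet. Drc1, a part of the nexin-dynein regulatory complex, was at 17.7 and 21.6, 26.6 and 26.1, 28.0 and 30.0, and 20.03 and 24.9 CPM in that order. Drc1 had the pattern of Dnai1, with the same 4 libraries below the other 4, while Ccdc39 was split in the COPD mice model given the control diet, which held its highest and its lowest value.

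Hydin, a central apparatus protein and the longest gene of the list, was at 31.9 and 56.9, 66.9 and 62.3, 70.7 and 32.0, and 49.2 and 61.4 CPM in the same order of groups. Tekt1, a filament protein of the doublet wall, was at 11.98 and 14.6, 18.1 and 17.4, 21.5 and 17.0, and 14.3 and 16.0 CPM. Of the 2, Hydin was low in replicate 2 of the COPD mice model given the control diet, whereas Tekt1 was not.

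Cfap43, an axonemal protein needed for sperm and airway cilia (its promoter match is shown above), was at 85.8 and 111 CPM in control mice given the control diet, 125 and 118 on the TJ-41 diet, 152 and 140 in the COPD mice model given the control diet and 124 and 126 on the TJ-41 diet. Cfap206, a protein at the base of a radial spoke, was at 19.8 and 22.9, 30.2 and 32.5, 31.4 and 26.2, and 23.7 and 29.7 CPM in that order. Cfap126, also called Flattop, was at 24.4 and 20.04, 26.8 and 20.7, 34.7 and 48.5, and 24.7 and 28.4 CPM. In all 3 genes both libraries of the COPD mice model given the control diet were above both of control mice on that diet.

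Among the other ciliated cell genes, Dynlrb2 was at 27.7 and 24.2 CPM in control mice given the control diet, 36.5 and 22.6 on the TJ-41 diet, 39.8 and 72.5 in the COPD mice model given the control diet and 32.7 and 40.1 on the TJ-41 diet. Tmem212 was at 14.6 and 15.7, 18.8 and 18.1, 21.2 and 32.0, and 19.98 and 18.3 CPM. Sec14l3 was at 1163 and 1353, 1452 and 1465, 1476 and 1099, and 1246 and 1339 CPM, a ratio of highest to lowest library of 1.34, against 3.21 for Dynlrb2. Tppp3 ran against the rest: its correlation with the median log2 CPM of the 35 genes was -0.46, and its lowest library, at 118 CPM, was the one in which 14 other genes had their highest value.

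**Figure D2:**
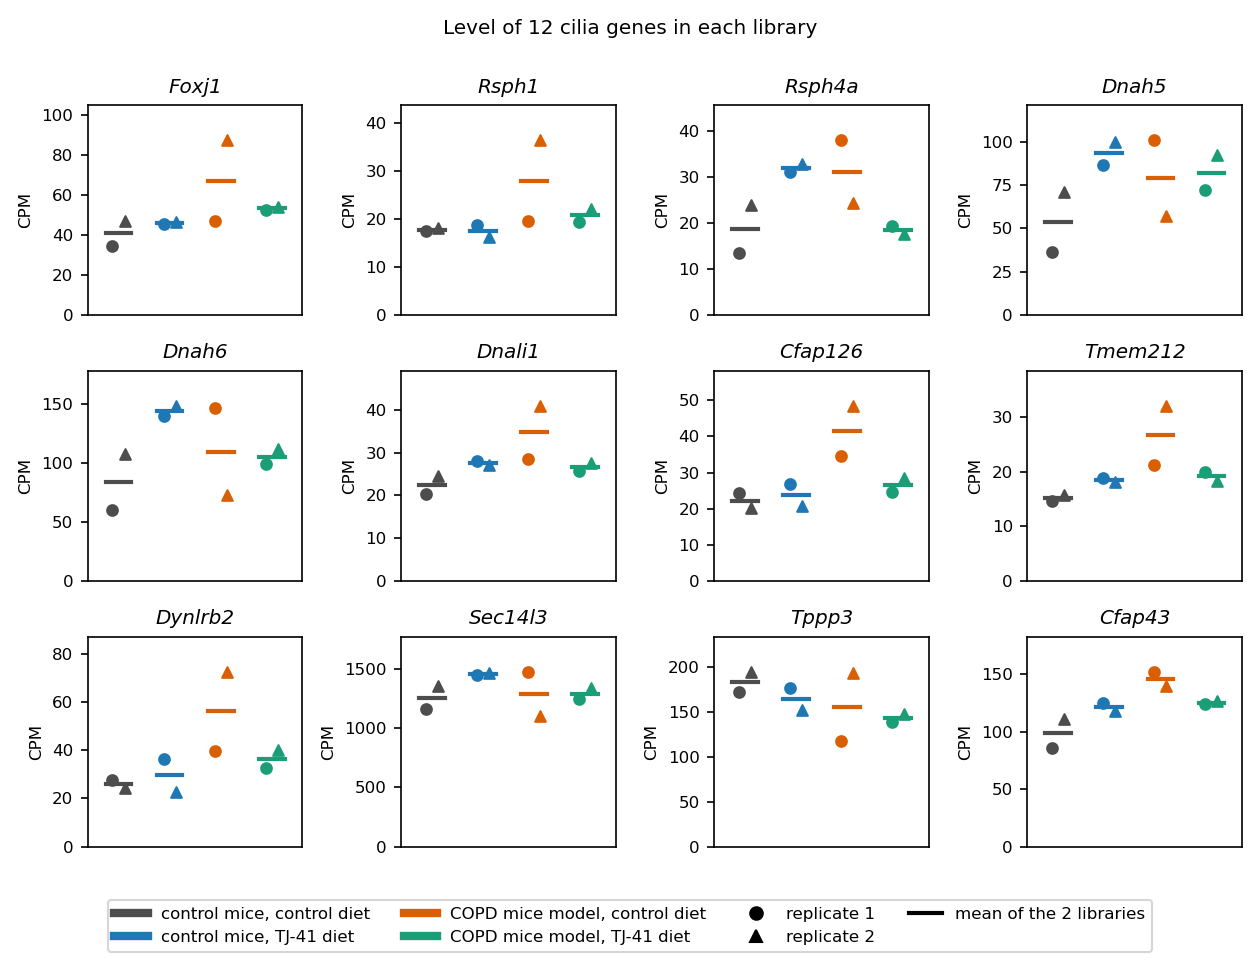
CPM of 12 of the genes in each library, with circles for replicate 1, triangles for replicate 2, bars for the mean of the 2 libraries and colors for the 4 groups. Foxj1, Rsph1, Cfap126, Tmem212 and Dynlrb2 have their highest value in replicate 2 of the COPD mice model given the control diet, and Dnah6 and Dnah5 are high in replicate 1 of that group and lower in replicate 2.

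Values in that replicate varied with exon length. The 17 genes with over 4559 bases of exon are called long here, which takes in the 8 heavy chains, at 12009 to 16086 bases, and the other 18 are called short. In replicate 2 of the COPD mice model given the control diet, 13 of 17 long genes were below their 8-library mean, all but Dnai2, Ccdc40, Cfap43 and Cfap65, and 15 of 18 short genes were above it, all but Cfap52, Cfap206 and Sec14l3. From replicate 1 to replicate 2 of that group, 15 of 17 long genes were lower and 11 of 18 short genes higher, from -1.48 (Dnah12) to 0.89 (Foxj1) on the log2 scale. Dnah11 went from 40.3 to 17.1 CPM between these libraries, and Rsph1 from 19.6 to 36.4. The correlation over the 35 genes of log2 exon length with the deviation from the 8-library mean was -0.83 in replicate 2 and 0.54 in replicate 1 of that group. It was -0.74 and 0.63 in control mice given the control diet, 0.70 and 0.74 in control mice given the TJ-41 diet and 0.07 and 0.28 in the COPD mice model given the TJ-41 diet. Over all genes tested it ran from -0.22 to 0.27. The points of these correlations share their libraries and differ in base composition as well as in length.

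**Figure D3:**
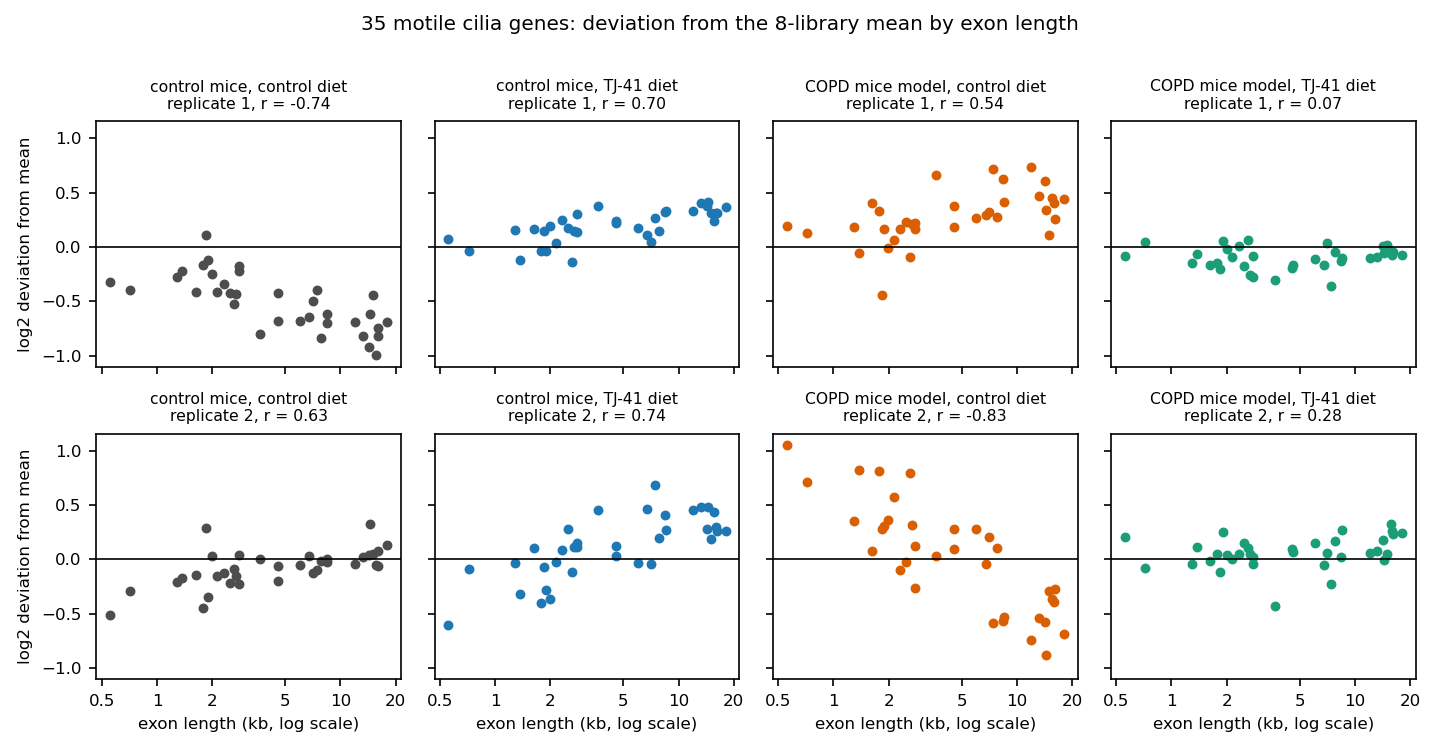
For each library, the deviation of log2(CPM + 0.5) from the gene's 8-library mean (vertical axis) against exon length in kb on a log axis, with 1 point for each of the 35 genes. Points fall with length in replicate 1 of control mice given the control diet (r = -0.74) and in replicate 2 of the COPD mice model given the control diet (r = -0.83), and rise with length in both libraries of control mice given the TJ-41 diet.

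The same replicate had the highest summed CPM of club and secretory cell markers, at 33609 against 14685 to 24283 in the other 7 libraries, and of alveolar type II markers, at 39432 against 19160 to 29127, from lists of 12 and 8 genes. Its partner, replicate 1, had the lowest sum of the club and secretory list, at 14685 CPM. All 12 and all 8 of these genes were detected. Replicate 2 was also the highest library for the sums of alveolar type I (7164 CPM), airway smooth muscle (822), heart and pulmonary vein muscle (694), neuroendocrine (15.5) and basal cell markers (6.51). It was not the highest for mesothelial or cartilage markers. The part of these differences in the cilia gene values was not tested. In lung tissue, fewer ciliated cells and less RNA of these genes per cell cannot be told apart.

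Differences between groups were tested with edgeR's quasi-likelihood test over all 20546 genes, and a gene was called where its Benjamini-Hochberg adjusted p was under 0.05 and its log2 fold change over 1 or under -1. Of the 35 genes, 0 were called in each of the 7 comparisons, and 0 reached an adjusted p under 0.05 at any fold. The lowest adjusted p of the 35 was 0.257, for Cfap126. DESeq2 called 0 in every comparison, and so did edgeR's exact test in the 4 comparisons of 2 groups. With 2 libraries in a group, an exact permutation test of a single gene cannot go below a two-sided p of 0.333.

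Whether the COPD mice model changed these genes was first read on the control diet. There, 33 of the 35 genes were higher in the COPD mice model, against 51% of all genes, with a median log2 fold change of 0.49 against 0.0073 over all genes. Of these, 15 were higher at an unadjusted p under 0.05, against 4.68% of all genes, and 18 had libraries that did not overlap between the groups and were higher, against 13.6% of all genes. Of all genes tested, 0.122% were called. The lower 2 were Tppp3 (-0.24) and Dnah11 (-0.08). Among other cell types, heart and pulmonary vein muscle markers were also mostly higher (7 of 8, median 0.53), and mesothelial markers mostly lower (4 of 6, -0.32). The part of such cells in the cilia gene values was not tested.

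The short genes carried the largest values of this comparison. Dynlrb2 had a log2 fold change of 1.11 ± 0.31 (SE, n = 2 libraries a group, 95% interval 0.41 to 1.82), with adjusted p = 0.385 in edgeR's quasi-likelihood test and Benjamini-Hochberg adjustment. Cfap126 was at 0.90 ± 0.23 (0.39 to 1.42, adjusted p = 0.321 by the same edgeR test) and Tmem212 at 0.81 ± 0.22 (0.31 to 1.32, adjusted p = 0.363 by the same edgeR test). Foxj1 was at 0.72 ± 0.27 (0.10 to 1.33, adjusted p = 0.559 by the same edgeR test), with libraries that overlapped between the groups. By role, the median was 0.70 for the radial spoke genes, 0.54 for the ruler and regulatory complex genes, 0.43 for outer arm, 0.44 for inner arm and 0.36 for central apparatus genes.

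The counts of this comparison rested on single libraries. Without replicate 1 of the COPD mice model given the control diet, 5 of the 35 were called higher, namely Foxj1 (1.09), Rsph1, Cfap126 (1.12), Tmem212 (1.08) and Dynlrb2 (1.48), with 1343 of all genes called in that fit against 25 with all libraries, and 24 of the 35 were higher in place of 33. The adjusted p of Foxj1 was then 0.00651 in edgeR's quasi-likelihood test and ran from that value to 1.00 over all alternatives. Without replicate 1 of control mice given the control diet, the number at an unadjusted p under 0.05 was 3 in place of 15 and the median 0.30. Without replicate 2 of that group the median was 0.76, and without replicate 2 of the COPD mice model given the control diet 23 genes were at an unadjusted p under 0.05. A fit of only these 2 groups gave 3 at that threshold.

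On the TJ-41 diet the direction was the other one, with 8 of the 35 genes higher in the COPD mice model, 27 lower and a median log2 fold change of -0.20, while 49.8% of all genes were higher. The libraries did not overlap and were lower for 21 genes and higher for 3 (Foxj1, Rsph1 and Tekt2), against 27.9% and 28.5% of all genes. Rsph4a was the 1 gene at an unadjusted p under 0.05, against 3.01% of all genes lower at that threshold, with 0.0779% of all genes called. All 11 dynein arm genes and all 4 central apparatus genes were lower. Markers of heart and pulmonary vein muscle (8 of 8, median -0.49) and airway smooth muscle (7 of 8, -0.27) were lower too. Alveolar type II (8 of 8, 0.31) and mesothelial markers (6 of 6, 0.21) were higher. The part of these cells in the cilia gene values was not tested. Rsph4a was at -0.80 ± 0.29 (SE, 95% interval -1.46 to -0.13, adjusted p = 0.688), Ccdc39 at -0.79 ± 0.36 (-1.61 to 0.03, adjusted p = 0.762) and Dnai1 at -0.39 ± 0.20 (-0.84 to 0.07, adjusted p = 0.773), all by edgeR's quasi-likelihood test and Benjamini-Hochberg adjustment. Foxj1 was at 0.21 ± 0.27 (-0.40 to 0.83, adjusted p = 0.836 by the same edgeR test), and at -0.12 after a correction of each library for exon length and GC content.

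The count for this comparison depended on which libraries entered the fit. With only its 4 libraries fitted, 8 of the 35 were at an unadjusted p under 0.05 in place of 1. The adjusted p of Rsph4a was then 0.0142, that of Ccdc39 0.0276 and that of Dnah11 0.0441 in edgeR's quasi-likelihood test, each the lowest of a range up to 1.00 over all alternatives, with 0 of the 35 beyond the fold threshold and 248 of all genes called in place of 16. As in the fit of all 8 libraries, 27 of the 35 were lower. In the fit of all 8 libraries, leaving out any 1 of these 4 left 0 genes at an unadjusted p under 0.05.

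Averaged over both diets, 26 of the 35 genes were higher in the COPD mice model, against 49.8% of all genes, with a median of 0.13. Of these, 7 were higher at an unadjusted p under 0.05 (Cfap126, Dynlrb2, Tmem212, Tekt2, Cfap43, Foxj1 and Rsph1), against 6.18% of all genes, and only Rsph1 and Tekt2 had all 4 COPD libraries above all 4 control libraries, against 3.35% of all genes. Of all genes, 0.443% were called. Dynlrb2 was at 0.71 ± 0.22 (SE, adjusted p = 0.278), Cfap126 at 0.53 ± 0.16 (adjusted p = 0.257), Foxj1 at 0.47 ± 0.19 (adjusted p = 0.447) and Tmem212 at 0.43 ± 0.16 (adjusted p = 0.372), all by edgeR's quasi-likelihood test and Benjamini-Hochberg adjustment. The 7 became 2 or 3 when replicate 1 of control mice given the control diet, or any 1 library of the TJ-41 diet, was left out. Without replicate 1 of the COPD mice model given the control diet, 17 of the 35 were higher and the median was -0.00020.

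**Figure D4:**
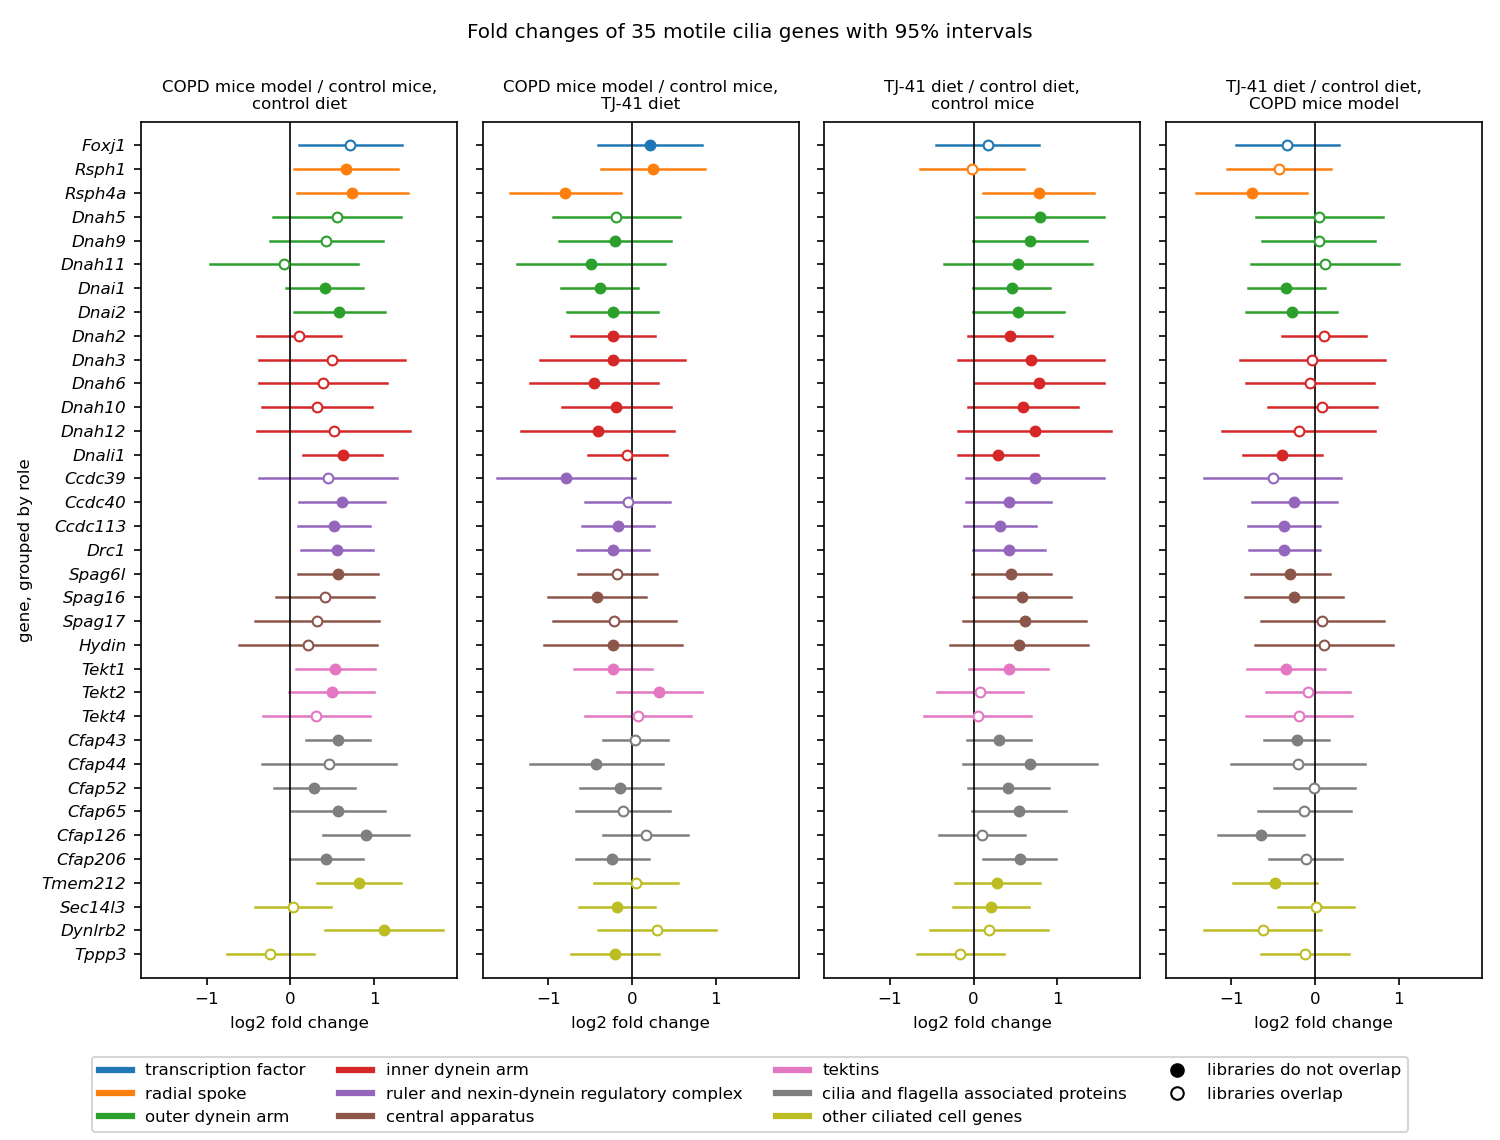
Log2 fold change of each of the 35 genes (points) with its 95% interval (lines) in the 4 comparisons of 2 groups, colored by role. Filled points are genes for which the 2 groups' libraries do not overlap, 18 for the COPD mice model given the control diet and 28 for the diet in control mice. Most points lie right of 0 in these 2 panels and left of 0 in the other 2.

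The diet was then compared within each kind of mice. In control mice, 33 of the 35 genes were higher on the TJ-41 diet, against 49.7% of all genes, with a median log2 fold change of 0.45 against -0.0018 over all genes. For 28 of them both TJ-41 libraries were above both control diet libraries, against 19.1% of all genes, and for 0 they were below, again against 19.1%. Of the 35, Cfap206, Rsph4a, Dnah5 and Dnah6 (4) were at an unadjusted p under 0.05, against 1.1% of all genes, and 0% of all genes were called. This comparison and that of the COPD mice model given the control diet share the 2 libraries of control mice given the control diet, including the one that was lowest for 24 of the 35 genes.

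Here the long genes had the larger values. The median was 0.59 in the long and 0.29 in the short genes, and the correlation of log2 fold change with log2 exon length over the 35 genes was 0.72, against 0.15 over all genes. Dnah5 was at 0.80 ± 0.34 (SE, 95% interval 0.03 to 1.56), Rsph4a at 0.78 ± 0.29 (0.12 to 1.44) and Cfap206 at 0.55 ± 0.19 (0.12 to 0.99), each with adjusted p = 0.996 in edgeR's quasi-likelihood test and Benjamini-Hochberg adjustment. Foxj1 was at 0.17 ± 0.27 (-0.45 to 0.79, adjusted p = 0.996 by the same edgeR test) and at -0.04 without replicate 1 of control mice given the control diet. Without that library the median of the 35 was 0.27 and 0 were at an unadjusted p under 0.05, and without replicate 2 of that group the median was 0.66 with 16 genes at that threshold. Leaving out replicate 1 or 2 of the TJ-41 diet gave 1 and 0. The number at an unadjusted p under 0.05 was 8 with DESeq2 and 14 after the length and GC correction. It was 13 with all genes of at least 1 count and 20 with only these 2 groups fitted. With scaling by library size alone it was 2, with a replicate block 4 and with genes of a mean of at least 1 CPM 5. In each of these fits 0 of the 35 were called. The 1.1% of all genes above belongs to the first fit only, so these counts have no share of all genes beside them.

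In the COPD mice model, 27 of the 35 genes were lower and 8 higher on the TJ-41 diet, against 47.6% of all genes higher, with a median log2 fold change of -0.20 against -0.01 over all genes. For 13 genes both TJ-41 libraries were below both control diet libraries, against 14.9% of all genes, and for 0 they were above, against 14.1%. At an unadjusted p under 0.05, 2 genes were lower, Cfap126 and Rsph4a, against 2.1% of all genes, and 0.00487% of all genes were called. Rsph4a was at -0.76 ± 0.29 (SE, 95% interval -1.42 to -0.09), Cfap126 at -0.65 ± 0.23 (-1.15 to -0.14), Tmem212 at -0.48 ± 0.22 (-0.97 to 0.02) and Foxj1 at -0.33 ± 0.27 (-0.95 to 0.28), each with adjusted p = 0.991 in edgeR's quasi-likelihood test and Benjamini-Hochberg adjustment. The 6 cilia and flagella associated genes and the 4 ruler and regulatory complex genes were all lower, whereas 3 of 5 outer arm genes and 2 of 6 inner arm genes were slightly higher, at most 0.12 (Dnah11). After the length and GC correction, Dnah5, Dnah9, Dnah2 and Dnah10 of these were below 0.

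This comparison shares its control diet libraries with the first, and these are the 2 replicates that differed most. Without replicate 2 of that group, Foxj1 was at 0.18 in place of -0.33, 31 of the 35 genes were lower and the median was -0.29. Without replicate 1 of that group, 20 were lower and 15 higher, with a median of -0.14. Leaving out replicate 1 of the TJ-41 diet gave 22 lower and 13 higher (-0.12), and leaving out its replicate 2 gave 33 lower and 2 higher (-0.28). The summed CPM of 8 heart and pulmonary vein muscle markers was 525 and 694 on the control diet and 317 and 258 on the TJ-41 diet, and all 8 were lower at an unadjusted p under 0.05. The part of such tissue in the cilia gene values was not tested.

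Over both kinds of mice together, the diet comparison gave 25 genes higher and 10 lower on TJ-41, against 49.8% of all genes higher, with a median of 0.11. There were 0 genes at an unadjusted p under 0.05 in edgeR's quasi-likelihood test, against 2.48% of all genes in either direction (0% called), and 0 genes whose libraries did not overlap, against 0.647% higher and 0.73% lower. DESeq2 also gave 0 at that threshold. The lowest unadjusted p belonged to Dnah5 (0.42 ± 0.24), Dnah2 (0.27 ± 0.16) and Cfap126 (-0.27 ± 0.16), each with adjusted p = 0.973 in the edgeR test, and Foxj1 was at -0.08 ± 0.19 (adjusted p = 0.977 by the same edgeR test) and at 0.01 after the length and GC correction. All 17 long genes were above 0 and 8 of 18 short genes, and the correlation of log2 fold change with log2 exon length was 0.87 over the 35 genes and 0.15 over all genes. Without replicate 1 of the COPD mice model given the control diet, 25 genes were higher and the median was 0.19. Without replicate 2 of control mice given the control diet, 28 were higher and the median was 0.25.

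The difference between the diet effects, that in the COPD mice model minus that in control mice, was below 0 for 34 of the 35 genes and above 0 for 1, against 48.7% of all genes above 0, with a median of -0.68 on the log2 scale against -0.01 over all genes. The exception was Tppp3 (0.04). At an unadjusted p under 0.05, 13 genes were lower, against 2.01% of all genes, and 0 of the 35 and 0% of all genes were called. Rsph4a was at -1.54 ± 0.42 (SE, 95% interval -2.47 to -0.60), Drc1 at -0.79 ± 0.27 (-1.40 to -0.18), Dnai1 at -0.80 ± 0.29 (-1.44 to -0.15) and Foxj1 at -0.50 ± 0.39 (-1.37 to 0.37), each with adjusted p = 0.999 in edgeR's quasi-likelihood test and Benjamini-Hochberg adjustment. By role, the median ran from -0.24 in the 3 tektins to -0.97 in the 2 radial spoke genes.

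Markers of other cell types were also below 0 in this difference. These were 8 of 8 heart and pulmonary vein muscle markers (median -1.13), 8 of 8 of airway smooth muscle (-0.34), 11 of 12 of club and secretory cells (-0.49) and 6 of 7 of neuroendocrine cells (-0.86). Above 0 were 8 of 8 alveolar type II (0.22) and 6 of 6 mesothelial markers (0.61). The part of these cells in the cilia gene values was not tested.

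Unlike the separate diet comparisons, this difference did not follow length. Its median was -0.67 in the long and -0.68 in the short genes, and its correlation with log2 exon length was -0.09 over the 35 genes. For 12 genes, Rsph4a, Dnai1, Dnai2, Dnali1, Ccdc40, Ccdc113, Drc1, Spag6l, Spag16, Tekt1, Cfap43 and Tmem212, both TJ-41 libraries were above both control diet libraries in control mice and below both in the COPD mice model, against 2.75% of all genes. The opposite pattern was found in 0 of the 35 and in 2.57% of all genes. Leaving out 1 library at a time gave 30 to 35 genes below 0, with medians from -0.85 to -0.38. The number at an unadjusted p under 0.05 then ran from 1, without replicate 1 of the COPD mice model given the TJ-41 diet, to 20, without replicate 2 of the COPD mice model given the control diet, where the lowest adjusted p was 0.0613, within a range of 0.0613 to 1.00 over all alternatives, and Foxj1 was at 0.02.

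**Figure D5:**
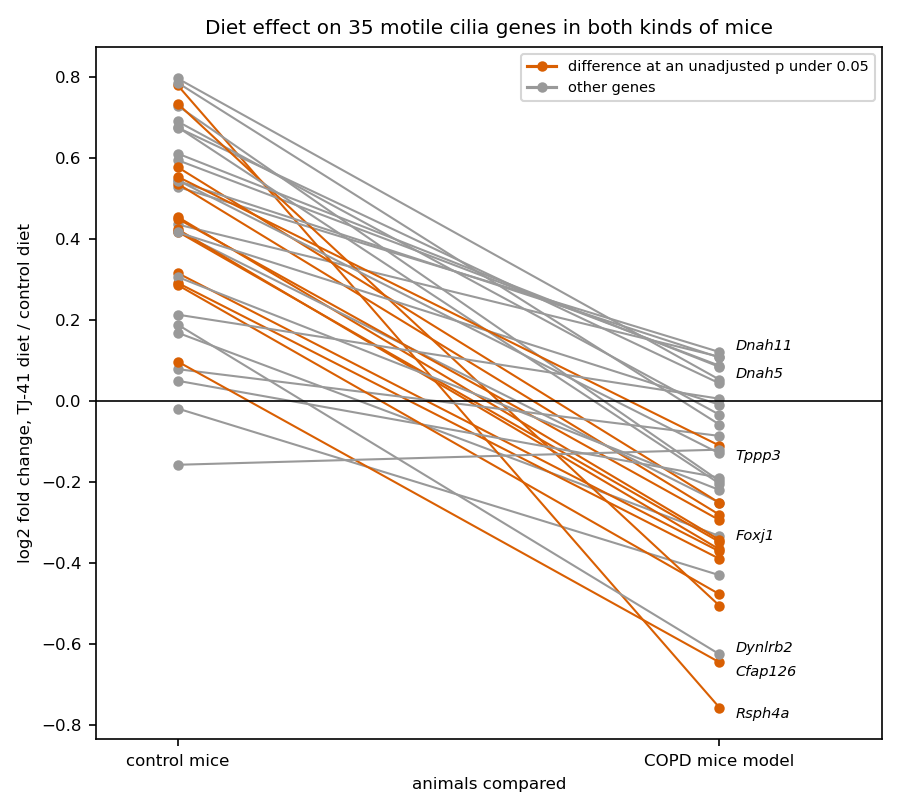
Log2 fold change of TJ-41 diet over control diet in control mice (left) and in the COPD mice model (right), with 1 line for each of the 35 genes and orange lines for the 13 genes whose 2 diet effects differed at an unadjusted p under 0.05. All lines but that of Tppp3 fall from left to right.

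The correction of each library for exon length and GC content kept the direction of these medians. After it, 32 of the 35 genes were higher in the COPD mice model given the control diet (median 0.49), 35 were higher with TJ-41 in control mice (0.43), 31 were lower with TJ-41 in the COPD mice model (-0.23) and 35 had a difference of diet effects below 0 (-0.68), with 0 called. The difference of diet effects then had 18 genes at an unadjusted p under 0.05, a count without a share of all genes in that fit beside it. Foxj1 was among the genes it moved most, from 0.17 to 0.41 for the diet in control mice and from -0.50 to -0.79 for the difference of diet effects. The correlation of the diet effect with log2 exon length over the 35 genes was still 0.59 in control mice after it.

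The 35 genes were also set beside 105 other genes of the same cells, in 4 lists of which 100 genes were tested. Of 56 other axonemal and ciliated cell genes, 56 were higher in the COPD mice model given the control diet (median 0.55, 23 at an unadjusted p under 0.05), 54 were higher with TJ-41 in control mice (0.46, 11), 54 were lower on that diet in the COPD mice model (-0.21, 4) and 55 had a difference of diet effects below 0 (-0.68, 21 lower). All 14 genes of dynein arm assembly and docking were higher in the COPD mice model given the control diet (0.58, 8 at that threshold) and had a difference of diet effects below 0 (-0.67, 3). The 22 genes of intraflagellar transport, which carries cargo along cilia of many cell types, had smaller medians, 0.11 and -0.17 in these 2 comparisons. Of 8 regulators of multiciliogenesis, 4 were higher in the COPD mice model given the control diet (0.10), and 7 had a difference of diet effects below 0 (-0.54). In these 4 lists 0 genes were called in any comparison, by edgeR's quasi-likelihood test.

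The genes whose log2 CPM over the 8 libraries was most like the median of the 35 were, outside the list, Fam161a (Pearson r = 0.98), Ttll6 (0.97), Cfap69 (0.97), Kcnrg (0.96), Tmeff1 (0.96), Fhad1 (0.96), Hs6st2 (0.95), Traf3ip1 (0.95), Ift81 (0.95) and Kcnmb2 (0.95). Cfap69 is an axonemal protein, and Traf3ip1 and Ift81 are subunits of the intraflagellar transport machinery. A correlation above 0.9 was found for 4 of the 35 genes themselves, led by Tekt1 (0.98), for 12 of the 78 tested genes of the other lists without intraflagellar transport, and for 0.321% of all genes tested. The median correlation was 0.76 over these 78 genes and -0.02 over all genes. All of these values rest on the same 8 libraries.

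Reads of these genes could be told from those of related genes in most cases. At most 1.63% of the 50-base pieces of a gene's transcripts, in Cfap43, also occurred in transcripts of another gene, and 25 of the 35 genes shared none. Exons of 4 genes overlapped a gene on the opposite strand over more than 10% of their bases, namely Tekt2 (20.8%, with Gm12945), Ccdc39 (16.9%, with Ttc14), Spag17 (15.7%, with Spag17os and Wdr3) and Dnah3 (10.5%, with Lyrm1). The strand setting of the counting is not given in the sources used here, so the counts of these 4 genes may include reads of their partners.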

How the data were processed

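RNA was sequenced from lungs of 8 libraries, 2 in each of 4 groups, which were mapped from the sample labels. The authors deposited raw read counts per Ensembl gene on mm10 (GRCm38), with no normalization. The submitters' processing notes name HISAT2 and edgeR, and the study's methods name CLC Genomics Workbench for the RNA-seq. Which of these made the counts, how strand was set and how reads that fit several genes were treated are not given in the sources used here. Symbols were matched to identifiers through GENCODE release M21, which held 52489 of the 52636 identifiers and lists Dnai1 and Dnai2 as Dnaic1 and Dnaic2.

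Counts were analysed in R 4.3.3 with edgeR 4.0.16. Genes were kept by filterByExpr (minimum count 10, minimum total count 15), scaled by TMM (factors 0.935 to 1.02), and fitted with 4 group means and 4 residual degrees of freedom, with Benjamini-Hochberg adjustment over all 20546 genes. The common biological coefficient of variation was 0.208. The SE was taken from F and the fold change, and intervals cover 95%. Deviations and correlations used log2(CPM + 0.5). The steps were tested on simulated data.

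The 35 genes and all lists were chosen with earlier results of these data known. Fold changes were given for Foxj1 in every comparison and for the 3 genes with the lowest unadjusted p in each, and library values for these and for the most abundant gene of each role. Rsph1, Dnah11 and the genes of the 12-gene pattern were named in addition, after their values were seen. Alternatives were DESeq2 1.42.0, edgeR's exact test, other scalings, filters and thresholds, only the groups compared, a replicate block, a loess correction for exon length and GC content (span 0.5), and leaving out each library. Library replicates differed by 8.06 to 57.6 times the variance of counting alone, so none was a copy. Intervals of fold changes rest on the spread between libraries, and the CPM equal to 3 counts covers counting error only.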

Additional observations from a re-analysis of the deposited data

How the results depend on the processing

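The 0 calls among the 35 genes and the medians over them moved by less than the spread between replicates in 204 of 215 values recomputed under an alternative, and the 11 others came from leaving out 1 library. With 1 library left out, the number called in the COPD mice model given the control diet ran from 0 to 5, and the median log2 fold change from 0.30 to 0.76 in that comparison, from -0.31 to -0.07 on the TJ-41 diet, from -0.00020 to 0.24 over both diets, from 0.27 to 0.66 for the diet in control mice, from -0.29 to -0.12 for the diet in the COPD mice model, from 0.031 to 0.25 for the diet over both kinds of mice, and from -0.85 to -0.38 for the difference of diet effects. Where this left a group with 1 library, that library was assumed to vary like the other groups. Of 416 values of single genes recomputed, 403 kept their direction and side of the threshold, 4 passed it and 9 reversed, all 9 for Foxj1. Only Foxj1 was kept whatever its p. The other genes were picked for the lowest unadjusted p in these data, which favors a steady direction, so these counts do not measure how robust they are. Under the length and GC correction Foxj1 was at -0.12 in the COPD mice model given the TJ-41 diet, without and with the block, and at 0.01 for the diet over both kinds of mice, without and with it (0.0088 and 0.015). With 1 library left out it ran from -0.037 to 0.40 for the diet in control mice, from -0.71 to 0.18 for the diet in the COPD mice model, from -0.28 to 0.17 for the diet over both and from -0.87 to 0.025 for the difference of diet effects. The cause was not tested. The replicate numbers did not pair the libraries, since replicate differences correlated between groups at -0.25 to 0.14. A replicate block left 0 genes called, with medians of 0.48, -0.21, 0.13, 0.45, -0.19, 0.11 and -0.70 in the order above, and 9 in place of 13 genes at an unadjusted p under 0.05 for the difference of diet effects. Of all genes, the COPD mice model given the control diet gave 25 calls, against 174 with DESeq2, 210 with the exact test and 3 to 1343 with 1 library left out. The log2 difference of the summed CPM for that comparison was 0.23, or 0.43 without Sec14l3, an alternative added after the data were seen. For the median log2 CPM of the genes in each library it was 0.60, which is not the median of their fold changes (0.49). With 2 libraries a group, the median 95% interval of a gene reached 0.56 to either side. In counts simulated over 20546 genes for the model effect under the control diet, 13 of 69 genes changed 2-fold were called. A 2-fold change lies on the fold threshold itself, so many such genes fail it whatever the spread. Of genes changed 4-fold and 8-fold, 51 of 64 and 60 of 67 were called, with 7 false calls.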

Other observations

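Other cell types of the airway, the alveoli and nearby tissue were measured by short lists in the same libraries, and 0 of their 64 tested genes were called in any comparison by edgeR's quasi-likelihood test. Neuroendocrine markers had the largest median of these lists in the COPD mice model given the control diet, with 6 of 7 higher and 3 at an unadjusted p under 0.05, at a summed level of only 7.79 to 15.5 CPM. In the COPD mice model 5 of the 7 were lower with TJ-41, with a median of -0.57. Club and secretory cell markers, led by the secretoglobin Scgb1a1, were higher in 10 of 12 in the COPD mice model given the control diet (0.24) and lower in 11 of 12 with TJ-41 in that model (-0.34).

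Alveolar type II markers, led by the surfactant gene Sftpc, were higher in 8 of 8 in the COPD mice model given the TJ-41 diet (0.31) and had a difference of diet effects above 0 in 8 of 8 (0.22), and alveolar type I markers, led by Ager, had medians of -0.06 and -0.15 in the COPD mice model given the control diet and for that difference. Airway smooth muscle markers, led by Myh11, were lower in 8 of 8 with TJ-41 in the COPD mice model (-0.40), and mesothelial markers, led by Krt19, were higher in 5 of 6 there (0.60). Heart and pulmonary vein muscle markers, led by Myh6, had a median difference of diet effects of -1.13. The 5 tested basal cell markers, led by Dapl1, summed to 4.60 to 6.51 CPM and the 2 tested cartilage markers, led by Col11a2, to 1.67 to 3.35 CPM, with Col9a1 at 0 counts in every library.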
